A study of Mus musculus with 25 samples.

Results

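The genes described here encode the TAL1 complex and its close relatives, namely *Tal1*, *Lyl1*, *Lmo2*, *Lmo4*, *Ldb1*, *Tcf3*, *Tcf4* and *Tcf12*. They are 8 of the 22208 protein-coding genes of the GENCODE vM1 annotation on mm9. A ChIP-exo entry was assigned to a gene when it lay in the gene body or within 50 kb of it. ChIP-exo is chromatin immunoprecipitation followed by exonuclease trimming of the bound DNA up to the cross-linked protein, which places binding to within a few bases. The 8 regions covered 1507 kb and held 26 of the 10290 final GATA1 binding locations (0.253%) and 57 of the 15209 final TAL1 binding locations (0.375%). The location farthest inside the 50 kb limit was a GATA1 location 44065 bp upstream of *Lyl1*, and the closest outside it was a TAL1 location 61536 bp from *Tal1*.

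The cells were G1E, a mouse erythroid progenitor line of strain 129 that lacks GATA1, and G1E-ER4, its derivative with GATA1 restored as a fusion to the estrogen binding domain. The fusion is ectopic in that both lines lack a working Gata1 gene of their own, and estradiol (10 nM by the sample labels, a different dose in the study's methods) switches it on. For GATA1 there was 1 G1E library and, for G1E-ER4, 3 libraries per time of estradiol (0, 3 and 24 h). For TAL1 the numbers were 4 for G1E and 5, 3 and 3 for G1E-ER4 at the same times. The study asked where each factor is cross-linked and how the positions of the pair relate to each other and to sequence. Each list pools the libraries of a factor and gives single base positions on mm9 without a tag count, score or replicate, so they do not give the read depth behind a location, and neither a change over time nor a spread between cultures can be computed. Whether the GATA1 library of G1E cells entered the GATA1 lists was unclear, and the labelled cell type was not checked against marker genes, since the lists hold no expression.

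TAL1 is a basic helix-loop-helix (bHLH) protein that binds DNA as a dimer with an E-protein, the products of *Tcf3* (E2A), *Tcf4* (E2-2) and *Tcf12* (HEB). LYL1 is its closest relative, and the LIM-only protein LMO2 bridges the dimer to LDB1 and to a GATA factor. The dimer recognizes an E-box, and GATA1 recognizes WGATAA, where W is A or T. In erythroid cells the assembled complex binds at many regulatory regions, and genes of blood transcription factors are among its known targets.

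Peak pairs join exonuclease stops on opposite strands, MultiGPS places binding events from the whole tag distribution, and the final list keeps MultiGPS locations that have a peak pair nearby. Of the 8 genes, 7 had at least 1 final GATA1 location and the same 7 had at least 1 final TAL1 location, the exception being *Lmo4*. Among all protein-coding genes, 42.7% had a final GATA1 location in the body or within 50 kb and 40.3% had a TAL1 location. A cooccupied GATA1 location, with a TAL1 location under 40 bp away, was present at 6 of the 8 genes, against 23.6% of all genes. Cooccupied here means close in lists that pool libraries. It does not show that both factors were bound in the same cells or at the same time. The TAL1 libraries include 4 of G1E cells, which lack GATA1, and a location cannot be traced to its libraries. The median was 3 GATA1 and 5 TAL1 locations per gene, and 0 of each over all genes. No test was made of these counts, since the genes were picked by name with results of these data known and their regions differ in length.

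**Figure D1:**
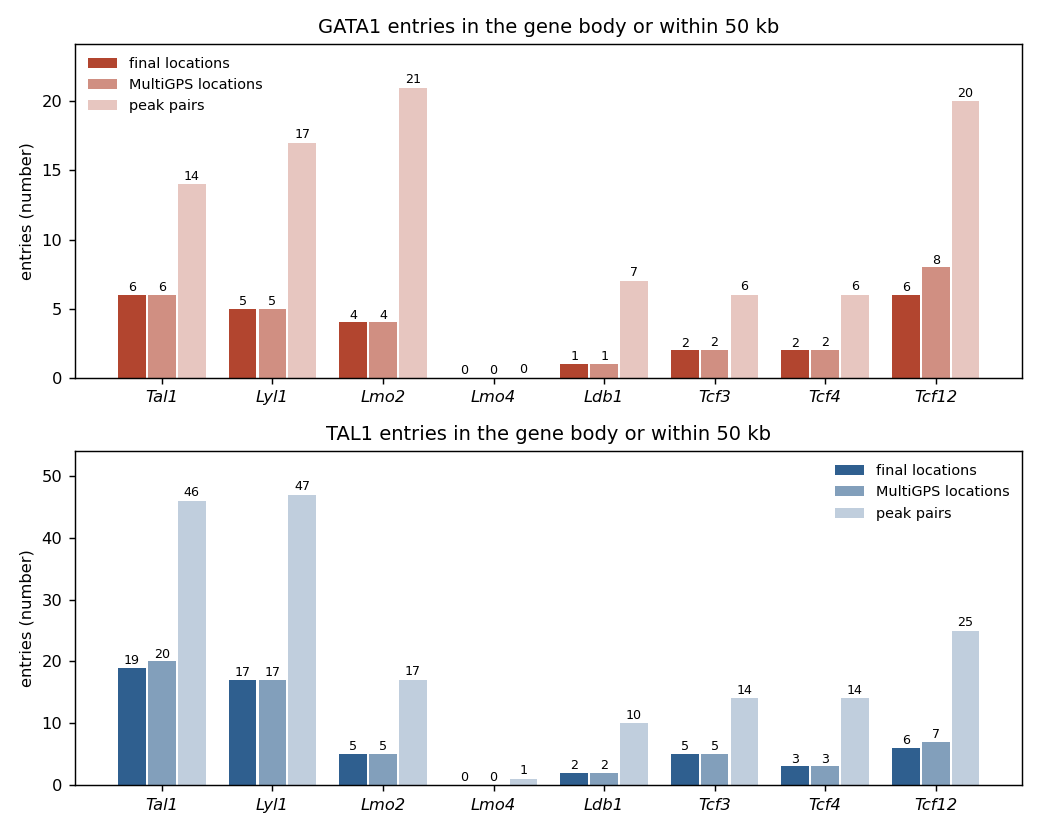
Number of GATA1 (upper panel) and TAL1 (lower panel) entries in the body or within 50 kb of each gene, with 1 bar each for final locations, MultiGPS locations and peak pairs. *Tal1* and *Lyl1* have 19 and 17 final TAL1 locations, the other genes at most 6, and *Lmo4* has none.

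*Tal1* and *Lyl1* held most of the TAL1 locations, 19 and 17 of the 57, or 16.5 per 100 kb at each. These are counts of called positions and not amounts of binding, and positions as little as 1 bp apart were counted separately. Over all protein-coding genes, 96 (0.432%) had as many TAL1 locations as *Tal1* and 162 (0.729%) as many as *Lyl1*. GATA1 locations were fewer at both, 6 at *Tal1* and 5 at *Lyl1*, or 5.20 and 4.84 per 100 kb. The genes with the most similar counts over the 6 lists, by distance on a log2(count + 1) scale, were Rnf130 (0.46), *Lyl1* (0.49) and Gm17505 (0.50) for *Tal1*, and Gm17505 (0.29), Vamp8 (0.29) and Cenpb (0.37) for *Lyl1*. Gm17505 and Vamp8 had identical counts in all 6 lists, and whether their regions hold the same entries was not checked.

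*Tal1* (ENSMUSG00000028717.6), the gene of the TAL1 protein itself, lies at chr4:114729031-114744360 on the plus strand. Its 19 TAL1 locations fell into 3 homotypic clusters, groups of locations of 1 factor with neighbors under 500 bp apart. The first, of 3 locations, lay upstream at 114720811, 114720969 and 114721069, 8220 to 7962 bp before the gene start. The second, of 4 locations, lay in the first part of the gene at 114729114, 114729189, 114729278 and 114729307, 83 to 276 bp after the start and in an intron. GATA1 had a location on either side of the start, at 114728863 and 114729273. The latter was 5 bp from the TAL1 location at 114729278 and 34 bp from that at 114729307, so both were cooccupied, while the GATA1 location at 114728863 was 251 bp from the closest TAL1 location. The sequence shown is around the cooccupied GATA1 location with WGATAA within 40 bp and the smallest distance to TAL1. It holds the compound site of the study, TG with 7 or 8 bases between it and WGATAA. Capitals mark AGATAA or TGATAA, the E-boxes CAGATG or CAGCTG, and TG at that spacing, here and in the sequences that follow.
Tal1 start, chr4:114729233-114729313, minus strand, mm9: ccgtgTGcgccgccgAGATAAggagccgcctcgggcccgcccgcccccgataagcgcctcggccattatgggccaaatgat

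The largest homotypic cluster at the 8 genes had 12 TAL1 locations between 114768079 and 114768794, in intergenic DNA 39048 to 39763 bp downstream of the *Tal1* start. Of the 2906 TAL1 clusters in the whole list, 17 (0.585%) had 12 or more locations. The start site closest to it was that of Pdzk1ip1, the gene of a membrane protein, 6751 to 7466 bp away. An enhancer active in erythroid cells is known downstream of *Tal1*, and whether this stretch is that element was not tested. The 12 locations were 1 to 198 bp apart with a median gap of 73.0 bp, and 21 TAL1 peak pairs lay among them. GATA1 was placed there at 114768335 and 114768483, and only the second, 17 bp from the TAL1 location at 114768466, met the 40 bp limit. Of the 12 locations, 4 had WGATAA within 40 bp and shared 1 site, with TG 8 bases upstream of it and CAGCTG 5 bases downstream, and 8 locations had neither WGATAA nor CAGATG or CAGCTG in reach. The stretch with that site was chosen for display after its values were seen.
Tal1 downstream cluster, chr4:114768327-114768626, plus strand, mm9: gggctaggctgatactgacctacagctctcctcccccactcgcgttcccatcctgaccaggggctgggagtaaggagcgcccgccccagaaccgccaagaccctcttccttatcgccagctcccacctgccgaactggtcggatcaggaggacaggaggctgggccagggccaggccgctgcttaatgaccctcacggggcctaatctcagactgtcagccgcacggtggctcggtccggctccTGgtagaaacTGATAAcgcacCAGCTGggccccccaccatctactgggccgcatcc

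The other *Tal1* entries were more scattered. GATA1 had locations at 114711107, in an untranslated exon of the neighboring gene Stil, and at 114722485, 17924 and 6546 bp before the *Tal1* start and 9704 and 1416 bp from TAL1. In the upstream cluster, no final GATA1 location was near, but a GATA1 peak pair lay 12 bp from the TAL1 location at 114720969, where an AGATAA site with TG upstream was also present.

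*Lyl1* (ENSMUSG00000034041.4), which encodes the bHLH relative of TAL1, lies at chr8:87225356-87228614 on the plus strand. A cluster of 6 TAL1 locations lay at 87225376, 87225438, 87225528, 87225580, 87225649 and 87225802, or 20 to 446 bp after the start. All were in untranslated exon, and this stretch is also inside the annotated span of the neighboring gene Nfix. GATA1 had 1 location among them, at 87225575, which was 5 bp from TAL1 at 87225580 and therefore cooccupied. A TGATAA site with its TG lay between the TAL1 locations at 87225528 and 87225580, and 4 of the 6 TAL1 locations had neither motif within 40 bp. An AGATAA site without TG lay at the GATA1 location itself. Only the compound site is printed, since the rest is untranslated exon.
Lyl1 first exon, chr8:87225535-87225564, minus strand, mm9: ggctgccTGgccgcggcTGATAAgaagcaa

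The second *Lyl1* cluster had 10 TAL1 locations between 87254557 and 87255001, 29201 to 29645 bp downstream of the start and inside an intron of Nfix, the gene of a nuclear factor I protein. Of all TAL1 clusters, 51 of 2906 (1.75%) had 10 or more locations. GATA1 had a single location there, at 87254802, with TAL1 at 87254811, 87254770 and 87254765, which were 9, 32 and 37 bp away and all cooccupied. TAL1 had 15 peak pairs between the ends of the cluster. The sequence around the GATA1 location, chosen after its values were seen, holds a complete CAGCTG whose last bases are the TG of the compound site, with 7 bases up to TGATAA and a further AGATAA downstream.
Lyl1 downstream cluster, chr8:87254762-87254842, minus strand, mm9: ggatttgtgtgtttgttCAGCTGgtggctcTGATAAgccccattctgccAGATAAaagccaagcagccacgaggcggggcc

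**Figure D2:**
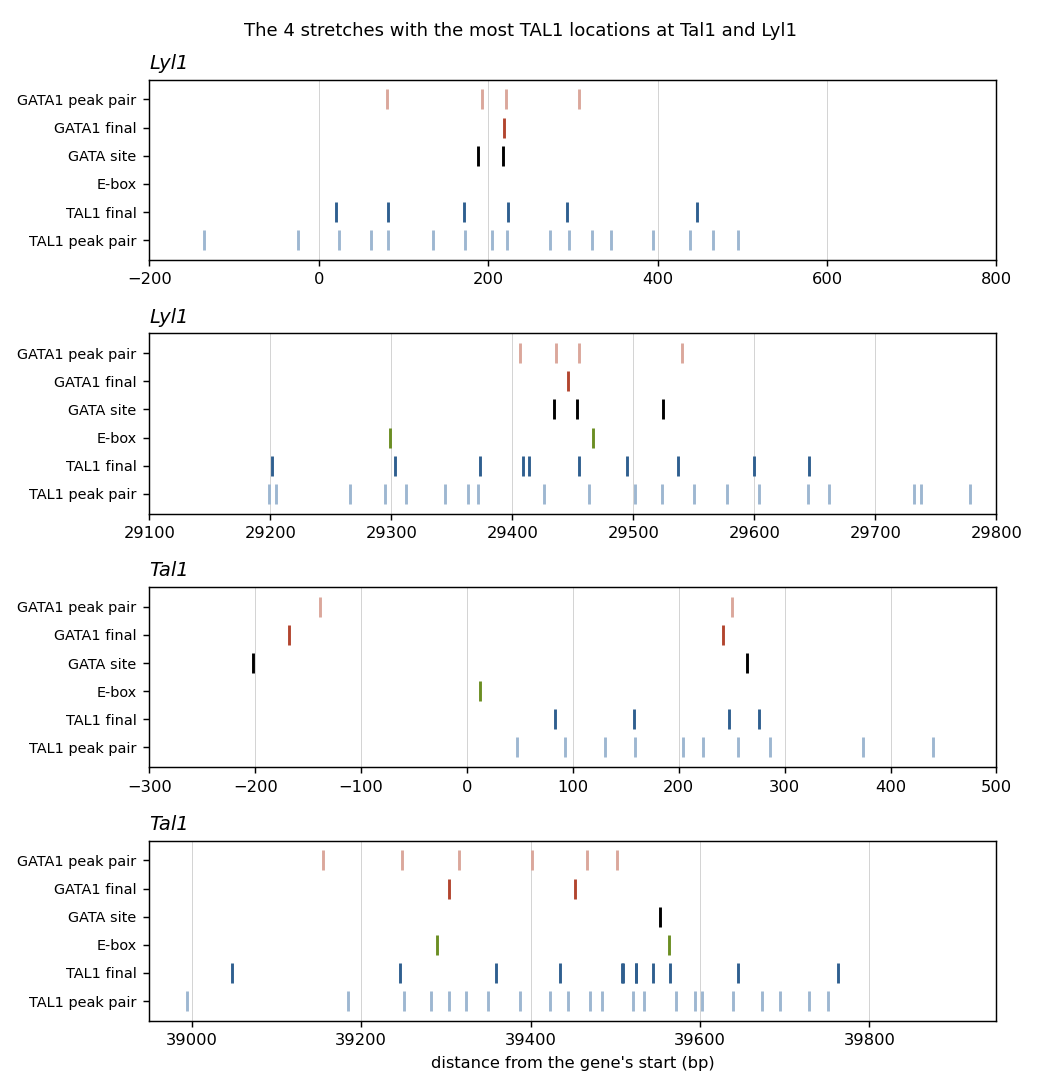
The 4 largest TAL1 clusters at the 8 genes, with the distance from the gene start in bp along the horizontal axis and 1 row each for GATA1 and TAL1 final locations and peak pairs, WGATAA sites (GATA site) and CAGATG or CAGCTG (E-box). The clusters hold 6 and 10 TAL1 final locations at *Lyl1* and 4 and 12 at *Tal1*, and each stretch has 1 to 3 GATA sites.

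Of the remaining *Lyl1* GATA1 locations, that at 87248716 had a TAL1 location 66 bp away at 87248782, and those at 87181291 and 87227527 were 44085 and 1725 bp from TAL1.

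*Lmo2* (ENSMUSG00000032698.8), the gene of the bridging LIM-only protein, lies at chr2:103798143-103822035 on the plus strand and had 4 GATA1 and 5 TAL1 locations, none of them in the gene body. At the start, TAL1 at 103798101 and GATA1 at 103798043 were 42 and 100 bp upstream and 58 bp from each other, outside the cooccupancy limit. A cluster of 3 TAL1 locations lay at 103797164, 103797181 and 103797294, 979 to 849 bp upstream, with GATA1 at 103797143, so that 2 of the 3 were cooccupied at 21 and 38 bp. Neither WGATAA nor CAGATG or CAGCTG was present within 40 bp of any location of that cluster. The start and the upstream cluster are shown side by side, the second chosen after its values were seen, because the first has a site and the second has none.
Lmo2 start, chr2:103798061-103798141, plus strand, mm9: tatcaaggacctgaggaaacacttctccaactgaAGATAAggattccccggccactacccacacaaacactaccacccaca
Lmo2 upstream cluster, chr2:103797103-103797183, plus strand, mm9: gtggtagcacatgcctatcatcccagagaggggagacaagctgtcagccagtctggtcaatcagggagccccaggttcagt

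Farther upstream, GATA1 at 103767057 and 103772378 and TAL1 at 103771125 were 25765 to 31086 bp from the *Lmo2* start and 1253 bp or more from each other. Peak pairs brought the factors closer here, with a TAL1 pair 14 bp from GATA1 at 103767057 and a GATA1 pair 34 bp from TAL1 at 103771125. *Lmo2* had the most GATA1 peak pairs of the 8 genes, 21, of which 9 had no MultiGPS location within 100 bp. The same held for 37 of the 91 GATA1 peak pairs of all 8 genes. *Lmo4* (ENSMUSG00000028266.11), which encodes another LIM-only protein, lies at chr3:143851494-143868184 on the minus strand and was empty but for a single TAL1 peak pair, at -39859 bp from its start. The closest final locations to it were 151072 bp away for GATA1 and 150929 bp for TAL1. Since the lists keep only calls past the authors' thresholds, an empty region says that none was called there.

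*Ldb1* (ENSMUSG00000025223.8), whose product joins LIM-only proteins and dimerizes, lies at chr19:46107083-46119704 on the minus strand and had 1 GATA1 and 2 TAL1 locations. All lay in an intron 7886 to 7926 bp after the gene start, with GATA1 at 46111801 between TAL1 at 46111778 and 46111818, 23 and 17 bp away. An AGATAA site was 3.50 bp from the GATA1 location, counted to its center, and had no TG at the spacing of the compound site.
Ldb1 intron, chr19:46111761-46111841, plus strand, mm9: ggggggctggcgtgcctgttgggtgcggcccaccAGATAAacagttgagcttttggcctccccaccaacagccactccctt

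The E-protein genes differed in how many of their locations were cooccupied. *Tcf12* (ENSMUSG00000032228.8), the gene of HEB, lies at chr9:71692059-71959626 on the minus strand and had 6 locations of each factor, 3 of each cooccupied. These pairs were GATA1 at 71779267 with TAL1 at 71779276, 71884937 with 71884898 and 71885622 with 71885598, or 9, 39 and 24 bp apart, all in introns and 74004 bp or more from the gene start. Only the first had a WGATAA site, and there CAGATG and TGATAA overlap by the shared TG, while another TG lies 8 bases upstream of TGATAA. TAL1 at 71779397 joined that location in the 1 cluster of the gene. At 267568 bp, *Tcf12* is long, and its 1.63 locations per 100 kb of each factor were below those of *Tal1* and *Lyl1*.
Tcf12 intron, chr9:71779227-71779307, minus strand, mm9: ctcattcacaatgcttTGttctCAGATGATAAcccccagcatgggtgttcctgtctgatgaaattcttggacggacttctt

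*Tcf3* (ENSMUSG00000020167.8), the gene of E2A, lies at chr10:79872259-79896392 on the minus strand and had 2 GATA1 and 5 TAL1 locations, none cooccupied. TAL1 at 79884703 and 79884721 lay 98 and 116 bp from an internal start site of the gene, and GATA1 at 79896731 lay 339 bp upstream of the gene start and 12010 bp from TAL1. A second pair of TAL1 locations, at 79938372 and 79938424, lay 41980 and 42032 bp upstream, where the closest start site was that of Onecut3. In an intron of Mex3d, GATA1 at 79847704 and TAL1 at 79847625 were 79 bp apart. At the internal start site a GATA1 peak pair lay 37 bp from TAL1 at 79884703, next to the AGATAA site with TG that is shown.
Tcf3 internal start, chr10:79884663-79884743, minus strand, mm9: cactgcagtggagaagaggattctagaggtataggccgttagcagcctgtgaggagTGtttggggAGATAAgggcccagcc

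**Figure D3:**
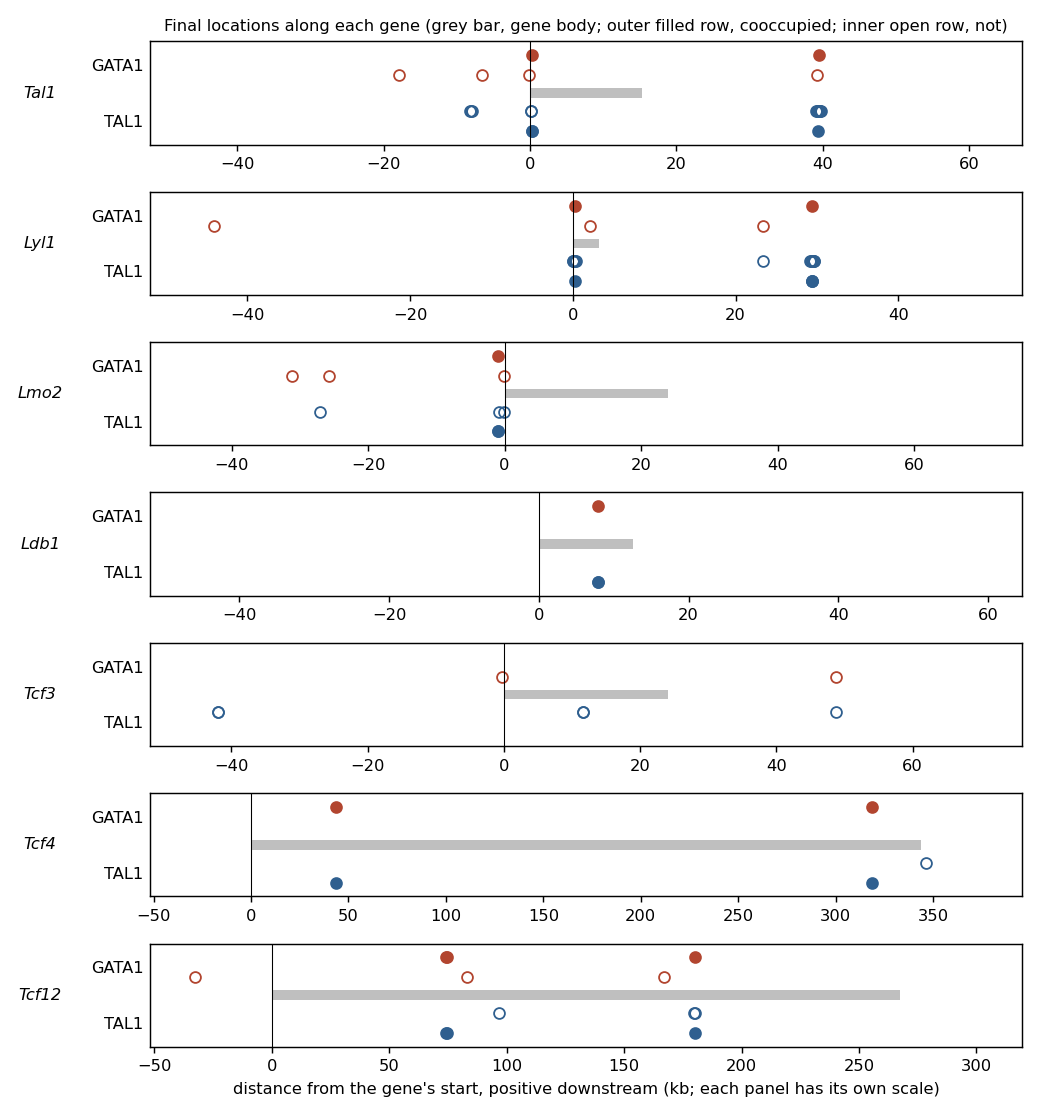
Final locations along the 7 genes that had any, with the distance from the gene start in kb along the horizontal axis (positive downstream, a scale of its own in each panel), GATA1 above and TAL1 below the grey gene body, cooccupied locations filled and the others open. TAL1 locations near the gene start number 4 at *Tal1*, 6 at *Lyl1* and 4 at *Lmo2*, and the largest groups at *Tal1* and *Lyl1*, of 12 and 10, lie downstream of the gene.

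Near a start site, 16 of the 57 TAL1 locations (28.1%) and 5 of the 26 GATA1 locations (19.2%) lay under 1 kb from one, all of them start sites of the 8 genes. For TAL1 these were 6 at *Lyl1*, 4 each at *Tal1* and *Lmo2* and 2 at *Tcf3*. All but 1 at *Lmo2* lay in 1 cluster per gene, so they are not independent. In the whole lists, 7.46% of TAL1 and 10.4% of GATA1 locations were as close. The regions used here are centered on genes, so each holds a start site by choice, while the whole lists have no such limit. The effect of that choice on these shares was not tested. The 8 genes were not always the closest ones, since the closest start site belonged to the gene itself for 16 of 26 GATA1 and 28 of 57 TAL1 locations. The neighbors with most of the rest were Pdzk1ip1 at *Tal1* and G430095P16Rik at *Lyl1*, with 12 and 11 TAL1 locations.

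*Tcf4* (ENSMUSG00000053477.9), the gene of E2-2, lies on chromosome 18 from 69503800 to 69847621 on the plus strand. It had 2 GATA1 and 3 TAL1 locations in a region of 444 kb, the lowest densities of the 7 genes with any, 0.451 and 0.676 per 100 kb. Both GATA1 locations were cooccupied, at 69547459 with TAL1 at 69547473 and at 69822193 with TAL1 at 69822194, 14 and 1 bp apart and inside introns. The last TAL1 location, at 69850021, was 27828 bp from GATA1. Of its 14 TAL1 peak pairs, 11 had no MultiGPS location within 100 bp.

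Over the 8 genes, 11 of 26 GATA1 locations were cooccupied, or 42.3% (95% exact binomial interval, 23.4 to 63.1%), and 16 of 57 TAL1 locations, or 28.1% (17 to 41.5%). In the whole lists the shares were 35.9 and 27.5%, inside these intervals. Cooccupied GATA1 locations were 1 to 39 bp from TAL1 with a median of 14.0 bp, and 8 of the 11 were under 20 bp away. Of the 41 TAL1 locations without a GATA1 location under 40 bp, 14 (34.1%) had a GATA1 peak pair that close, against 33.0% of such TAL1 locations in the whole list. TAL1 locations in homotypic clusters numbered 46 of 57, or 80.7% (68.1 to 90.0%), against 64.4% of all TAL1 locations, and without *Tal1* they numbered 27 of 38, or 71.1%. For GATA1, 4 of 26 were in clusters (15.4%, against 13.7%), all at *Tal1*. Intervals cover counting error only and treat neighboring locations as independent, which members of a cluster are not.

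WGATAA, searched as AGATAA or TGATAA on both strands within 40 bp, was present at 17 of the 26 GATA1 locations (65.4%; 44.3 to 82.8%) and at 1 of 26 windows moved by 1 kb from them (3.85%; odds ratio 47.2, adjusted p = 9.70e-06 in a two-sided Fisher's exact test). At TAL1 locations it was present at 24 of 57 (42.1%; 29.1 to 55.9%) and in 2 of 57 moved windows (3.51%; odds ratio 20, adjusted p = 3.70e-06 by the same exact test). Both shares were well above the moved windows, and the whole lists had 66.5 and 45.9% at locations and 8.29 and 8.23% in moved windows. The 24 TAL1 locations drew on 21 distinct sites, since locations of a cluster can reach the same site and 1 location can reach several. With 1 location kept per cluster, the TAL1 counts were 9 of 21 against 2 of 21, and the adjusted exact p was 0.0595. All p-values were adjusted over 5 tests, and where locations share a site they are too small. The authors' MultiGPS command also named a motif search and the genome sequence. Motifs may therefore have informed where locations were placed. Part of the contrast with moved windows, and of that between cooccupied and other locations below, may be built in.

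For the E-box no difference was called. CAGATG or CAGCTG lay within 40 bp of 10 of the 57 TAL1 locations (17.5%; 8.75 to 29.9%) and in 6 of 57 moved windows (10.5%; odds ratio 1.81, adjusted exact p = 0.419). In the whole list it was at 21.7% of TAL1 locations and in 9.80% of moved windows, both inside the interval of the 57 locations. With the windows moved to lower coordinates instead, CAGATG or CAGCTG lay in 3 of 57 (5.26%, adjusted exact p = 0.0739). The broader E-box CANNTG was at 18 TAL1 locations and in 23 moved windows (31.6 against 40.4%, adjusted exact p = 0.435). In the whole list the order was the opposite, 45.3% of TAL1 locations against 34.9% of moved windows, and 45.3% was just above the interval at the 8 genes (19.9 to 45.2%). Neither WGATAA nor CAGATG or CAGCTG was within reach of 30 of the 57 TAL1 locations (52.6%; 39.0 to 66.0%), against 42.4% in the whole list. Strings of other blood factors were counted in the same way. The ETS strings AGGAAG and CGGAAG were at 7 TAL1 locations and in 13 moved windows, the KLF string CCNCACCC at 4 and in 1, and the RUNX string TGTGGT at 1 and in 5. The shares at TAL1 locations were 12.3, 7.02 and 1.75%, against 14.3, 3.55 and 9.82% in the whole list, and the RUNX interval at the 8 genes (0.0444 to 9.39%) ended just below the whole-list share. At GATA1 locations the counts were 1 and 2, 3 and 2, and 5 and 2, or shares of 3.85, 11.5 and 19.2% at locations against 14.1, 3.44 and 10.5% in the whole list.

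Cooccupied TAL1 locations had WGATAA more often than the others, at 11 of 16 (68.8%; 41.3 to 89.0%) against 13 of 41 (31.7%; 18.1 to 48.1%; odds ratio 4.74, adjusted p = 0.0279 by Fisher's exact test). The whole list had nearly the same shares, 69.4 and 37.0%. Among GATA1 locations with WGATAA, TG stood 7 or 8 bases upstream of it at 5 of 7 cooccupied and 1 of 10 other locations (71.4 and 10.0%; odds ratio 22.5, adjusted exact p = 0.0431). The 5 were at *Tal1*, *Lyl1* (both clusters), *Tcf4* and *Tcf12*. Neither call held without *Tal1* (adjusted exact p = 0.0699 and 0.128), within 10 kb of the genes (0.169 and 0.101) or with 1 location per cluster (0.497 and 0.0595), although the direction was the same. In the whole lists the TG shares were 50.2 and 22.1%.

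TG upstream of WGATAA was also counted where TAL1 had no final GATA1 location nearby. Of the 13 TAL1 locations with WGATAA but no GATA1 location under 40 bp away, 12 had it (92.3%; 64.0 to 99.8%), on 9 of their 10 distinct WGATAA sites, while 6 of the 11 cooccupied ones did (54.5%; 23.4 to 83.3%). In the whole list these shares were 55.7 and 52.8%. Of the 12, those in the downstream *Tal1* cluster numbered 4 and shared 1 site, and 6 had a GATA1 peak pair under 40 bp away.

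**Figure D4:**
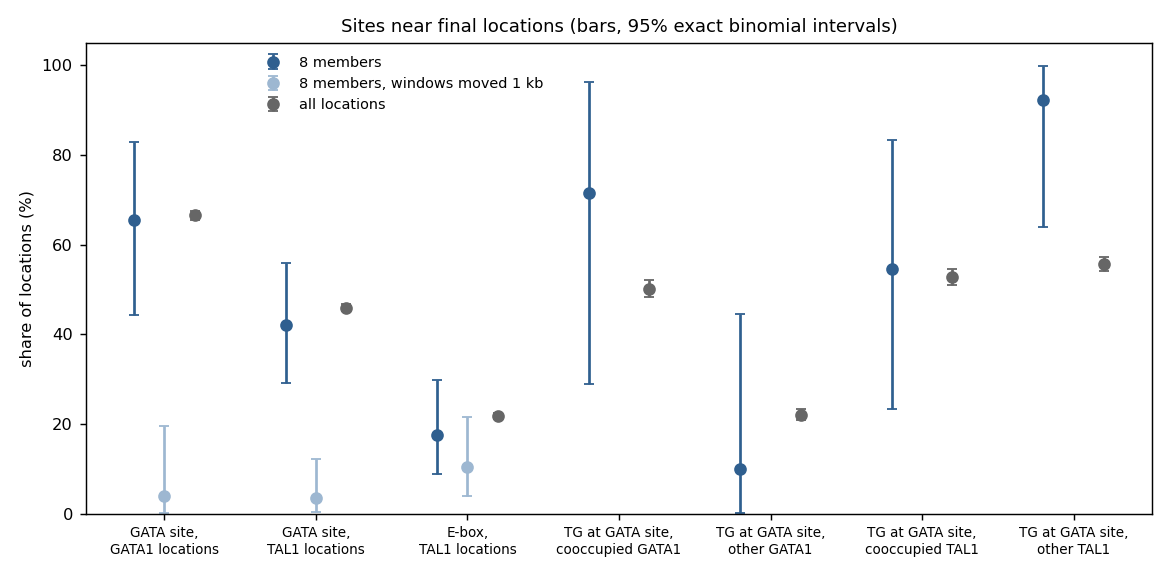
Share of final locations at the 8 genes (dark points), in windows moved by 1 kb (light points) and in the whole lists (grey points) with a WGATAA site (GATA site), a CAGATG or CAGCTG E-box, or TG 7 or 8 bases upstream of a GATA site, with 95% exact binomial intervals. The GATA site shares of 65.4 and 42.1% stand apart from their moved windows, and the E-box share of 17.5% does not.

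At the 7 cooccupied GATA1 locations with WGATAA, distances were counted from the first base of the WGATAA site closest to GATA1. Positive values run downstream on the strand of the site. The TAL1 location closest to the GATA1 location lay at 20, -4, 1, 23, 1, -5 and 5 bp. The order is *Tal1*, *Lyl1* start, *Lyl1* downstream, *Ldb1*, *Tcf4* (both) and *Tcf12*. The values 1, 1 and 5 lie inside the site itself, so only those at *Tal1* and *Ldb1* were downstream of it. This closest TAL1 location was upstream at 2 of 7 (28.6%), against 63.5% of 2629 such locations in the whole list. The count depends on which TAL1 location is taken, since further cooccupied ones lay at -9 bp at *Tal1* and -17 bp at *Ldb1*, and any was upstream at 4 of 7 sites (57.1%), against 67.7% in the whole list. At the *Lyl1* start the site used is the AGATAA without TG. With 7 locations no test was made.

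Some entries were made by only 1 of the callers. With no MultiGPS location within 100 bp there were 37 GATA1 and 56 TAL1 peak pairs, and of these 16 (43.2%) and 9 (16.1%) had WGATAA within 40 bp. These shares stand without a whole-list share or moved windows beside them, so they do not show that the pairs are binding sites. The MultiGPS lists added 2 locations of each factor to the final ones, both GATA1 locations and 1 TAL1 location at *Tcf12* and the other TAL1 location at *Tal1*.

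Related genes were counted in the same way, with no test and with regions of unequal length. Of 15 listed cofactors and partners of the complex, 14 had a GATA1 and 13 a TAL1 location in the body or within 50 kb, and 11 had a cooccupied one, against 42.7, 40.3 and 23.6% of all genes, and the medians were 5 and 8 locations. Cbfa2t3, which encodes the corepressor ETO2, had 9 GATA1 and 48 TAL1 locations, and Zfpm1, which encodes the GATA1 cofactor FOG1, had 21 and 37. Of the 4 ID genes, whose products bind E-proteins and keep them from DNA, Id1 had 3 and 6, Id3 had 1 and 4, and Id2 and Id4 had none. Of 7 relatives outside the 8 genes, Lmo1 had 2 and 9, Tal2 had 1 and 1, and Lmo3, Ldb2, Nhlh1, Nhlh2 and Msc had none. Of 9 bHLH genes of muscle and nerve, 0 had a GATA1 and 1 a TAL1 location, a single one at Myod1.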

How the data were processed

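ChIP-exo of GATA1 (10 libraries) and TAL1 (15 libraries) was deposited as lists of mm9 positions, which hold no counts or scores. Per the labels and the study's methods, the authors aligned reads (BWA 0.6.2 and 0.7.9a, Bowtie 1.00, after CASAVA 1.7 and bcl2fastq 2.15), merged replicates, paired opposite-strand peaks, ran MultiGPS and required over 2-fold enrichment above input (q value under 0.05).

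Positions were counted in the body or within 50 kb of each gene (GENCODE vM1, longest of several entries, 22208 genes). Cooccupied locations were under 40 bp and cluster neighbors under 500 bp apart. Motifs were exact strings lying wholly within 40 bp, and windows moved by 1 kb gave the background. Shares were compared by Fisher's exact test (two-sided, Benjamini-Hochberg over 5 tests), and shares have exact binomial intervals at 95%. The counting was tested on simulated data. Alternatives were other regions, distances, motif definitions, lists and 1 location per cluster.

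The genes and lists were chosen with earlier results of these data known. All 8 genes were named, with coordinates of cooccupied locations, the largest clusters and locations within 1 kb of a start, 1 sequence for each of 6 genes (none for *Lmo4*, which had no location, or *Tcf4*), neighbors holding most locations, 3 genes closest in counts to each gene with 10 or more TAL1 locations, and up to 2 related genes per list. Further named genes and sequences were chosen after values were seen. Python 3.11.15, pandas 2.3.3, scipy 1.17.1 and pysam 0.24.0 were used.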

Additional observations from a re-analysis of the deposited data

How the results depend on the processing

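No paired analysis was possible across replicates because the lists pool all libraries of a factor and carry no replicate. Each moved window was matched to a location, but Fisher's exact test treated locations and moved windows as independent groups. Within 10 kb of the genes the counts fell to 16 GATA1 and 30 TAL1 locations and to 54 and 104 peak pairs. WGATAA at cooccupied against other TAL1 locations differed by 37.0 percentage points, and the call was lost within 10 kb (33.3 points), without *Tal1* (37.2) and with 1 location per cluster (21.4). TG at cooccupied against other GATA1 locations differed by 61.4 points, and was not called within 10 kb (66.7), without *Tal1* (52.4), with 1 location per cluster (56.7) and with cooccupancy under 100 bp (35.7). WGATAA at TAL1 locations against moved windows lost its call with 1 location per cluster (33.3 points). The E-box difference of 7.02 points turned to -8.77 points with CANNTG and rose to 12.3 points with windows moved to lower coordinates. It was not called under any setting run. Fewer locations entered the settings within 10 kb, without *Tal1* and with 1 location per cluster. Why calls were lost, or why the E-box difference turned, was not tested for any setting. At GATA1 locations the contrast of WGATAA with moved windows was called under each alternative run, by 42.3 to 76.9 points, the latter with a weight matrix. The lists give no depth, so an absent location cannot be told from an undetected one.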
